A study of Mus musculus with 2 samples.

Results

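Adventitial-type fibroblasts, the collagen-producing cells that sheathe large vessels and airways, were described in 2 single-cell RNA-seq libraries of mouse lung. Barcodes needed 500 or more genes, no more than 10% mitochondrial UMIs (unique molecular identifiers, each a counted transcript), and at least 4 of the 8 genes Dcn, Col1a1, Col1a2, Col3a1, Clec3b, Mfap5, Serpinf1 and Fbln1. The UMIs of Clec3b, Mfap5, Serpinf1 and Fbln1 together had to exceed those of Inmt, Mfap4, Pdgfra and Hsd11b1, genes of the alveolar fibroblast. At most 2 UMIs were allowed of the smooth muscle genes Myh11, Cnn1 and Actg2, and at most 2 of the endothelial genes Cdh5, Pecam1 and Cldn5. The rule gave 126 cells of the 4071 kept, 56 of 1326 in the knockout library (KO) and 70 of 2745 in the wild-type library (WT).

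Both libraries came from C57BL/6J mice 10 to 12 weeks old, and the study models hereditary hemorrhagic telangiectasia type 2 (HHT2), an inherited disease of malformed vessels. KO mice carried the knockout and WT mice did not. The labels give neither the deleted gene, nor the cells in which it was deleted, nor how many animals each library held. In both groups lungs were digested with dispase at 5 mg/ml for 1 h and with DNase at 50 µg/ml for 30 min, passed through a 70 µm strainer, and sorted as positive for VE-cadherin, a junction protein of endothelium, and negative for the leukocyte protein CD45. The samples are labelled as lung endothelial cells, so the fibroblasts described here are cells that the labels do not name and that passed the sort.

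Adventitial fibroblasts lie in the cuff of loose connective tissue around bronchi and large vessels, and are known for fibrillar collagen, elastic fibre parts and small proteoglycans. A part of them carries Pi16, a secreted peptidase inhibitor, and Dpt, or dermatopontin, a matrix protein that binds decorin. Alveolar fibroblasts, their neighbours in the gas-exchange region, are marked by Npnt and its integrin receptor subunit Itga8. Vessel walls, nerves and leukocytes meet in the cuff, and its fibroblasts are known as a source of chemokines, complement and growth factors for them.

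The values that chose the cells were as follows. In KO, 37 of the cells had all 8 genes and 9 had only 4, and in WT 52 had all 8 and 6 had only 4. The adventitial sum exceeded the alveolar sum by a median of 47.5 UMIs in KO and 38.5 in WT, and by a single UMI in 8 KO and 5 WT cells. Just outside the rule stood 4 KO and 4 WT cells with tied sums, 26 KO and 24 WT cells with 3 of the 8 genes, 1 KO and 2 WT cells with exactly 3 smooth muscle UMIs, and 1 KO and 3 WT cells with exactly 3 endothelial UMIs.

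Markers that the rule did not use were checked against the label. Of 25 further adventitial markers, 22 stood at 20 CPM (the share of a class's UMIs, on the usual CPM scale) or more in KO cells and 23 in WT cells, and none was at 0. In alveolar-type fibroblasts, chosen by the same rule with the order of the marker sums reversed, 17 in KO and 20 in WT reached that level, so this count separated both types little. Their summed level was 21538 CPM in KO and 31895 CPM in WT adventitial-type cells, against 13039 CPM in KO and 16551 CPM in WT alveolar-type cells. Summed over all cells of the class in a library, Pi16 reached 610.6 CPM in KO and 834 CPM in WT, against 66.2 CPM and 104 CPM in the alveolar-type fibroblasts of KO and WT. Lum, or lumican, a small collagen-binding proteoglycan, reached 375 CPM in KO and 476 CPM in WT. Itga8 stood at 2.52 CPM in KO and 14.3 CPM in WT, and Ptprc, which encodes CD45, had no UMI in either.

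**Figure D1:**
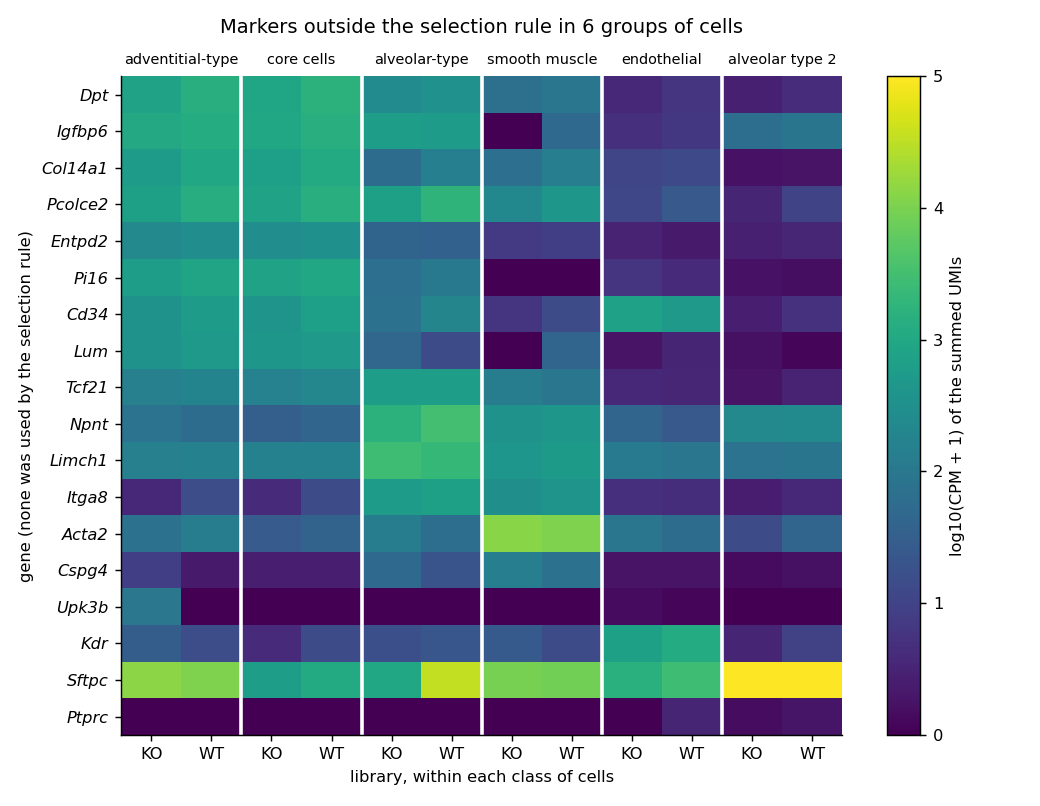
Levels of 18 genes outside the selection rule (rows) in KO and WT cells of 6 groups of cells (columns), as log10 of CPM plus 1 of the summed UMIs. Dpt, Col14a1, Pi16 and Lum are brightest in adventitial-type and core cells, Npnt, Limch1 and Itga8 in alveolar-type cells, Acta2 in smooth muscle cells, Kdr in endothelial cells and Sftpc in alveolar type 2 cells.

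Some of the cells carried RNA of other types. Surfactant gene Sftpc made up over 1% of UMIs in 7 KO and 4 WT cells, with highest shares of 23.1% and 16.9%, and Upk3b, a gene of the mesothelium that lines the lung, had UMIs in 3 KO cells and no WT cell. The 11 alveolar type 2 markers summed to 18093 CPM in KO and 16594 CPM in WT, and the 9 mesothelial markers to 585 CPM in KO and 87 CPM in WT. Results are therefore also given over the core cells, those with all 8 genes and at most 1% Sftpc, a limit set after the data had been seen: 88 cells, 37 in KO and 51 in WT. In core cells the alveolar type 2 markers summed to 978 CPM in KO and 1976 CPM in WT, and the mesothelial markers to 83 CPM in KO and 82 CPM in WT, with 7 of the 9 at 0 in KO and 8 at 0 in WT. The 12 endothelial markers summed to 486 CPM in KO core cells and 790 CPM in WT core cells, and the 8 leukocyte markers to 8 CPM and 30 CPM.

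Each group was 1 library, so differences between KO and WT carry no replicate check and were not tested, and every interval given (95%, exact Poisson for levels, exact conditional binomial for ratios, Clopper-Pearson for shares) covers counting error only. Barcodes over the mitochondrial limit made up 30.5% of KO and 15.1% of WT barcodes. Scrublet called 11 KO and 16 WT doublets among kept cells, of which 1 KO and 2 WT were adventitial-type and none a core cell, and the 12 barcodes found in both libraries included none of the class. The class held 792631 UMIs in KO and 769394 in WT, with a median of 13340.5 UMIs per cell in KO (661 to 53455) and 11711 in WT (942 to 24169). The animals differed in sex: of the KO cells, 12 were Xist-only (UMIs of Xist and none of Y-linked genes) and 35 Y-only (the reverse), while of the WT cells 67 were Xist-only and 1 was Y-only.

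Adventitial-type fibroblasts made up 4.22% of kept KO cells (3.21 to 5.45) and 2.55% of kept WT cells (1.99 to 3.21). Among adventitial-type and alveolar-type fibroblasts together they were 65.9% of 85 KO cells (54.8 to 75.8) and 50.7% of 138 WT cells (42.1 to 59.3). Core cells were 2.79% of kept KO cells (1.97 to 3.83) and 1.86% of kept WT cells (1.39 to 2.44). The intervals of each pair overlap, for the share of kept cells barely, at 3.21%. The sort for VE-cadherin and the larger share of KO barcodes over the mitochondrial limit can each set such shares, and their part was not tested.

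Adventitial-type and alveolar-type fibroblasts were set side by side within each library. Of 1204 genes at 100 CPM or more in adventitial-type cells of both, 114 (9.47%) were at least 2-fold higher than in alveolar-type cells in both, and of 1330 genes at 100 CPM in alveolar-type cells, 171 (12.9%) were at least 2-fold higher there. These genes come from the cells the rule divided and are a description. Igfbp5, which binds insulin-like growth factors, was 50.2-fold higher in KO and 44.9-fold in WT, and over core cells against alveolar-type cells of at most 1% Sftpc 23.98-fold and 33.6-fold. Col14a1, a collagen that lies on the surface of fibrils, was 9.31-fold higher in KO and 7.14-fold in WT, and Fbln2, a protein of elastic fibres and basement membranes, 6.63-fold in KO and 7.73-fold in WT. Timp1, an inhibitor of matrix metalloproteinases, was 33.8-fold higher in KO and 7.38-fold in WT. Prss23, a secreted protease, Cpxm1, a carboxypeptidase-like matrix protein, and Entpd2, an enzyme that breaks down extracellular ATP, stood 5.80-fold to 9.64-fold higher in both libraries. In the other direction Npnt had a ratio of 0.0479 in KO and 0.0185 in WT, and 0.0189 and 0.0109 over those cleaner cells. Aldh1a1, which makes retinoic acid, had 0.0611 in KO and 0.0452 in WT, and Limch1, an actin-binding regulator, 0.0547 in KO and 0.0751 in WT.

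Between KO and WT, the metallothioneins had the highest ratios of the genes ranked at 100 CPM or more, 62.1-fold for Mt2 and 24.96-fold for Mt1. Fabp4, Serpina3n, Ctgf, Timp1 and Lox stood 3.80-fold to 11.6-fold higher in KO, and elastin and the chains of type IV collagen 2.41-fold to 2.69-fold. For Mt1, Mt2, Fabp4, Serpina3n, Ctgf and Timp1 a few KO cells held much of the sum, as given below. Lower in KO were immediate early genes, the stress-induced chaperones Hspa1a and Hspa1b, Hedgehog pathway genes and the matrix genes Col14a1, Pcolce2 and Ogn. A gene was counted as higher or lower when its KO and WT levels lay at least 1.5-fold and their Poisson intervals apart, at a mean of 20 CPM or more. Of 5984 such genes, 246 were higher in KO (4.11%) and 221 lower (3.69%), and of the 1376 at 100 CPM or more, 90 (6.54%) and 103 (7.49%). In core cells 202 of 5714 were higher (3.54%) and 235 lower (4.11%). Of the 246 genes, 159 were also higher in core cells, and of the 221, 165 were also lower there. The counts of list members given below stand beside 4.11% higher and 3.69% lower over all genes.

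Metallothioneins are small cysteine-rich proteins that bind zinc and copper, and their genes are known to be induced by metals, glucocorticoids and oxidative stress. Mt2 and Mt1 lie side by side on chromosome 8 of GRCm38, at chr8:94172664-94173568 and chr8:94179082-94180327, both on the plus strand. Mt1 reached 7624 CPM in KO (7433 to 7819) and 305 CPM in WT (268 to 347), a ratio of 24.96 (21.9 to 28.6). Mt2 reached 2985 CPM in KO and 48.1 CPM in WT, a ratio of 62.1 (44.9 to 88.4). Core cells had ratios of 27.2 for Mt1 and 62.4 for Mt2. They held 5856 of the 6043 KO and 215 of the 235 WT Mt1 UMIs, so these ratios are no separate check. Single cells overlapped in Mt1: the level per 10000 UMIs ran from 0.567 through a median of 34.8 to 279.5 in KO core cells, and from 0 through 1.98 to 21.98 in WT core cells. The KO median thus lay above the highest WT core cell. The 2 deepest KO core cells held 1403 and 1009 of the 5856 Mt1 UMIs of KO core cells. They also held 620 and 401 of the 2129 Mt2 UMIs. Mt2 had UMIs in 33 of 37 KO core cells and 16 of 51 WT core cells. With each cell thinned to 1500 UMIs, Mt1 was detected in 83.8% of KO core cells (68.0 to 93.8) and 33.3% of WT core cells (20.8 to 47.9), which unthinned were 100% and 76.5%. In endothelial cells, where the gene is low, the thinned shares were 2.28% in KO and 1.34% in WT, and in alveolar type 2 cells 30.6% and 16.8%, at endothelial median depths of 5274.5 and 4229 UMIs against 15745 and 12848 in KO and WT core cells. Both genes were higher in Xist-only and in Y-only KO core cells: Mt1 stood at 5835 CPM in the 10 Xist-only KO cells and 10724 CPM in the 24 Y-only KO cells, against 341 CPM in the 50 Xist-only WT cells.

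The list of 21 measured genes of oxidative stress and detoxification, which holds both metallothioneins, had 5 higher and 2 lower in KO, against 4.11% and 3.69% of all genes, with a median log2 ratio of 0.12, where the median over all genes measured was -0.04. The other higher members were Sod2, the mitochondrial superoxide dismutase, with 105 CPM in KO and 39.0 CPM in WT, Hmox1, which degrades heme, with 50.5 CPM and 16.9 CPM, and Cyp1b1. Single KO cells held 16 and 19 Sod2 UMIs, the latter a cell outside the core, and 2 KO cells held 10 Hmox1 UMIs each. No other KO cell had more than 5 of either gene. In Xist-only core cells the log2 ratio of Sod2 was -0.54 in place of 1.425. Gstm1 and Gstt1, glutathione transferases, were lower. In core cells 7 of 19 measured genes of this list were higher and 2 lower. Of 15 hypoxia and glycolysis genes, Ldha, or lactate dehydrogenase A, at 211 CPM in KO and 105 CPM in WT, and Mif were higher, and Hk1 was lower, at 8.83 CPM and 31.2 CPM. In core cells 3 of 13 were higher and 0 lower. Haemoglobin differed through 1 cell: 1 KO cell held 1244 of the 1268 Hbb-bs UMIs of the KO class.

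Among 17 measured proteases and inhibitors, 2 were higher and 2 lower in KO, against 4.11% and 3.69% of all genes. Serpina3n, a secreted serine protease inhibitor of the acute phase response, reached 1273 CPM in KO and 174 CPM in WT, a ratio of 7.31 (6.10 to 8.82). Its level per 10000 UMIs had a median of 3.82 in KO core cells (0 to 103.5) and 0.778 in WT core cells (0 to 14.7), so the cells of the libraries overlapped. Of the 985 Serpina3n UMIs in KO core cells, 2 cells held 263 and 141. Timp1 reached 789.8 CPM in KO and 140.4 CPM in WT, a ratio of 5.63 (4.58 to 6.97). This ratio rested on a few deep cells: 2 of the 37 KO core cells held 61.0% of the Timp1 UMIs of all, and without the 5 deepest cells of each library the log2 ratio was 0.86 in place of 2.49. Timp3, the inhibitor that stays bound to matrix, was lower, with 1277 CPM in KO and 2334 CPM in WT, and its core medians per 10000 UMIs were 11.1 in KO (0 to 43.4) and 21.9 in WT (2.89 to 53.7). Mmp3, or stromelysin 1, was lower as well, with 229.6 CPM in KO and 615 CPM in WT, a ratio of 0.374.

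Elastic fibres consist of elastin laid on fibrillin microfibrils and cross-linked by lysyl oxidase. Of 17 measured genes of this list, 6 were higher in KO and none lower, against 4.11% of all genes higher; 1 of the 6, Mfap4, was used by the selection rule. The list's median log2 ratio was 0.04, so most members did not share the difference, and Fbn1, the main fibrillin, stood at 897 CPM in KO and 1166 CPM in WT. Eln, or elastin, reached 9045 CPM in KO and 3364 CPM in WT, a ratio of 2.69 (2.57 to 2.81), and 2.91 in core cells. In single core cells Eln ran from 0 through a median of 52.8 to 404 per 10000 UMIs in KO and from 0.759 through 17.8 to 225 in WT, a wide overlap. Lox, or lysyl oxidase, reached 845 CPM in KO and 222 CPM in WT, a ratio of 3.80 (3.21 to 4.53), with core medians of 8.77 per 10000 UMIs in KO and 1.88 in WT. Fbln5, which tethers elastin to cells, stood at 511 CPM in KO and 225 CPM in WT, and Ltbp2, a microfibril-associated relative of the latent TGF-beta binding proteins, at 51.7 CPM and 23.4 CPM. Ltbp2 did not pass in core cells. Eln and Lox were above WT in both sexes of KO core cells: Eln stood at 14242 CPM in Xist-only KO cells, 9824 CPM in Y-only KO cells and 3631 CPM in Xist-only WT cells, and Lox at 1012, 1007 and 240 CPM in the same order. Fbln5 was highest in the Xist-only KO cells, with 1363 CPM there, 427 CPM in Y-only KO cells and 244 CPM in Xist-only WT cells.

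The main fibrillar collagens, both genes of the rule, differed by less than 1.5-fold. Col1a1 stood at 17409 CPM in KO and 14062 CPM in WT and Col3a1 at 19490 CPM and 15196 CPM. Of 16 measured collagens, the 2 chains of the basement membrane collagen IV were higher: Col4a1 stood at 1355 CPM in KO and 562 CPM in WT, a ratio of 2.41, and Col4a2 at 608 CPM and 244 CPM, a ratio of 2.49. The core median of Col4a1 per 10000 UMIs was 12.7 in KO (0.656 to 33.2) and 4.79 in WT (0 to 15.4). Col14a1 was lower, with 544 CPM in KO and 1001 CPM in WT. Of 15 genes of collagen folding and processing, Pcolce2, which enhances the cleavage of procollagen, was lower, with 681 CPM in KO and 1275 CPM in WT, and no member was higher. Of 9 small leucine-rich proteoglycans, Ogn, or osteoglycin, was lower, with 371 CPM in KO and 762 CPM in WT.

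Mgp, the matrix Gla protein that inhibits calcification of vessel walls and binds BMPs, was among the highest transcripts of the class, with 24043 CPM in KO and 9235 CPM in WT, a ratio of 2.60 (2.53 to 2.68). Here too 2 cells carried much of the sum: they held 46.8% of the Mgp UMIs of KO core cells, and both had Y-linked transcripts alone. Mgp stood at 8063 CPM in Xist-only KO core cells and 36847 CPM in Y-only KO core cells, against 10332 CPM in Xist-only WT core cells, so the direction turned round between the sexes. Of 15 matricellular and adhesive proteins, Ctgf, a secreted protein induced by TGF-beta and YAP, and Smoc2 were higher, and Cyr61, its relative, Tnxb, or tenascin X, and Lama4, a laminin chain, were lower. Ctgf reached 1209 CPM in KO and 211 CPM in WT, with 41.0% of the KO core UMIs in 2 cells and core medians of 1.99 per 10000 UMIs in KO and 0.735 in WT. Cyr61 stood at 170.3 CPM in KO and 467 CPM in WT. Tgfbi, a matrix adhesion protein induced by TGF-beta, had 212 CPM in KO and 467 CPM in WT, with 462 CPM in Xist-only KO core cells, 174 CPM in Y-only KO core cells and 513 CPM in Xist-only WT core cells.

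Fabp4, a fatty acid carrier of adipocytes and microvascular endothelium, reached 844 CPM in KO and 72.8 CPM in WT, a ratio of 11.6 (8.82 to 15.5). Over the 20 alternatives described at the end, its log2 ratio ran from 1.37 to 4.09, against 3.54 over the class. In KO core cells 62.0% of its UMIs lay in 2 cells, both with Y-linked transcripts alone. The median KO core cell had 1.59 per 10000 UMIs, and the highest 117. In WT core cells the median was 0 and the highest 15.8. Ptgis, the prostacyclin synthase, stood at 330.5 CPM in KO and 124 CPM in WT, and its ratio of 2.68 was 1.52 in core cells. S100g, a calcium-binding protein abundant in alveolar type 2 cells, stood at 216 CPM in KO and 52.0 CPM in WT, but at 7.86 CPM and 11.0 CPM in core cells, where 5 and 7 UMIs gave a ratio of 0.712 (0.178 to 2.61) that did not pass. Wisp2, a secreted relative of Ctgf, stood at 159 CPM in KO and 41.6 CPM in WT.

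Of the 18 measured genes of retinoid and lipid handling, which hold Fabp4, 2 were higher and 4 lower in KO. Over all genes the shares were 4.11% and 3.69%. Aldh1a1 was the other higher one, with 93.4 CPM in KO and 36.4 CPM in WT. Adh1, an alcohol dehydrogenase that oxidises retinol, was lower, with 146 CPM in KO and 296 CPM in WT. Abca1, which exports cholesterol, was lower too, with 68.1 CPM in KO and 133 CPM in WT. In core cells 4 of 17 measured genes of the retinoid and lipid list were higher and 6 lower. Among 4 measured hyaluronan genes, Has1, a hyaluronan synthase, had 62 UMIs in KO and 2 in WT, a ratio of 30.1 (7.99 to 254), with 87.0% of its KO core UMIs in 2 cells, and Cd44, the hyaluronan receptor, stood at 140.0 CPM in KO and 67.6 CPM in WT. Of 11 myofibroblast and contractile genes, Actn1, which cross-links actin, with 102 CPM in KO and 22.1 CPM in WT, and Cthrc1, a secreted protein of activated fibroblasts, with 141 CPM and 63.7 CPM, were higher. Acta2 and Myl9 were lower over the class and did not pass in core cells.

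**Figure D2:**
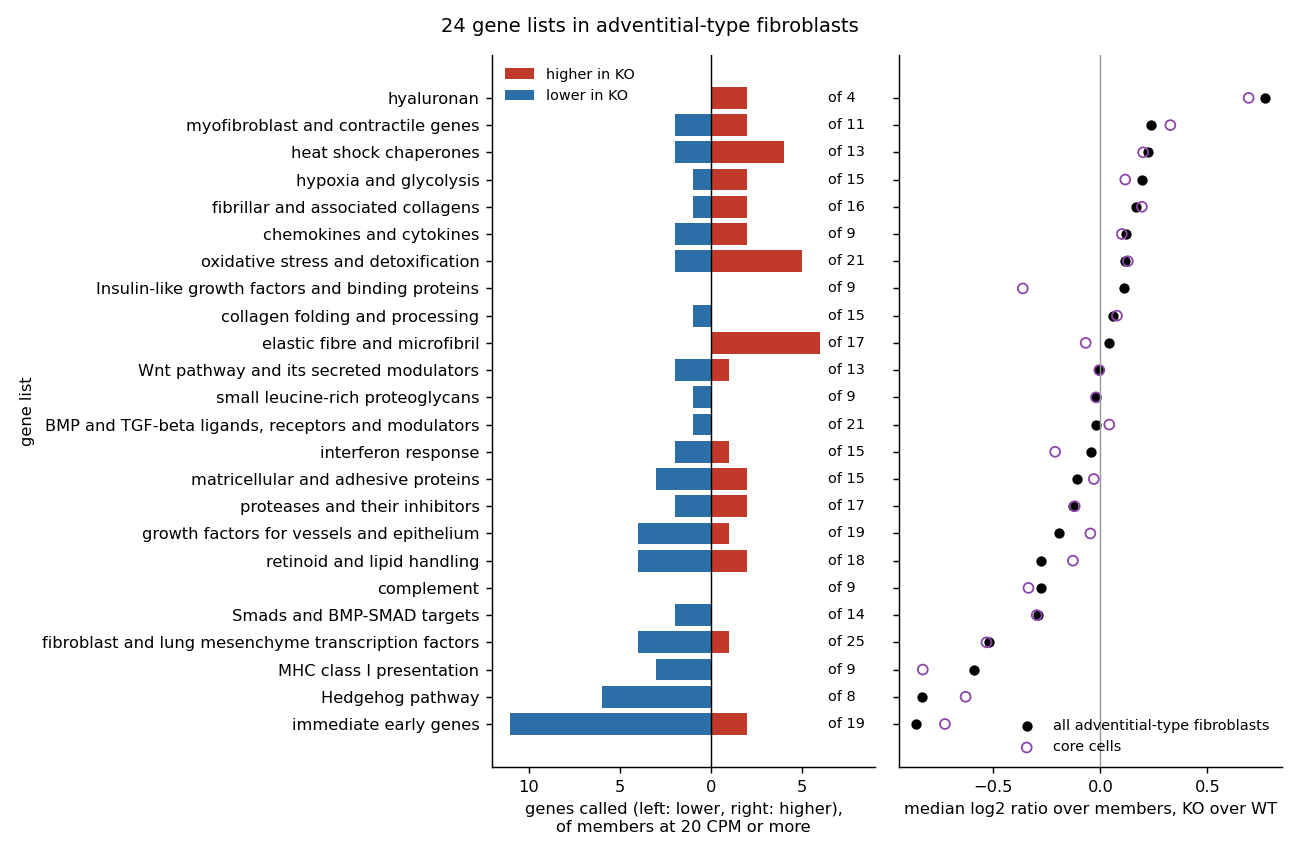
Members of 24 gene lists counted as higher (right, red) or lower (left, blue) in KO adventitial-type fibroblasts, of the number measured at 20 CPM or more, and the median log2 ratio of KO over WT for all cells of the class (filled) and core cells (open). Immediate early genes (11 of 19 lower), the Hedgehog pathway (6 of 8 lower) and MHC class I presentation (3 of 9 lower) stand lowest.

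Immediate early genes encode transcription factors and their regulators that are known to be induced within minutes by growth factors and by tissue dissociation. Of 19 measured, 11 were lower in KO and 2 higher, against 3.69% and 4.11% of all genes, with a median log2 ratio of -0.86. In core cells 11 of 19 were lower and 4 higher, with a median of -0.73. Fos stood at 231 CPM in KO and 716 CPM in WT, a ratio of 0.322 (0.271 to 0.382), and Egr1 at 492 CPM and 1063 CPM, a ratio of 0.463. In core cells Fos had a median of 1.91 per 10000 UMIs in KO (0 to 7.96) and 3.46 in WT (0 to 46.0), so that the libraries overlapped at low levels and only WT core cells went beyond 7.96. Junb, Jun, Zfp36, which destabilises AU-rich transcripts, Dusp1, a MAP kinase phosphatase, and Btg2 were among the other lower members, with ratios of 0.452 to 0.551. Myc, with 28 UMIs in KO and 4 in WT, and Fosl2 were higher. Of 13 heat shock chaperones, the inducible Hspa1a, with 85.8 CPM in KO and 308 CPM in WT, and Hspa1b, with 75.7 CPM and 225 CPM, were lower, and Hspa8, Hsp90aa1, Hspb1 and Hspd1 were higher. Differences in handling between the preparations could not be told apart from the genotype.

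Acvrl1, the BMP9 and BMP10 receptor whose human gene is mutated in HHT2, stood at 79.5 CPM in KO fibroblasts and 87.1 CPM in WT fibroblasts, a ratio of 0.913 (0.637 to 1.31). In endothelial cells it stood at 1051 CPM in KO and 1448 CPM in WT, a ratio of 0.726; since the labels name no deleted gene and a 3' count need not cover a deleted part, these values check no label. Of 21 measured ligands, receptors and modulators of BMP and TGF-beta signalling, 1 was lower and none higher: Eng, or endoglin, the co-receptor that presents BMP9, with 45.4 CPM in KO and 81.9 CPM in WT. Eng did not pass in core cells, where 1 other member of the list was higher and none lower. The receptors Bmpr2, with a ratio of 0.936, and Tgfbr2, with 0.881, did not pass. Of 14 Smads and BMP target genes, Id1 and Id2, inhibitors of basic helix-loop-helix factors that BMPs induce, were lower and none was higher. In core cells 3 of the 14 were lower and 2 higher. Id1 stood at 74.4 CPM in KO and 173 CPM in WT, a ratio of 0.431 that was 0.241 in core cells, whereas in alveolar-type fibroblasts it stood at 323 CPM in KO and 32.9 CPM in WT.

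Hedgehog ligands reach adventitial fibroblasts from the airway epithelium, and the receptor Ptch1, the transcription factor Gli1 and the decoy Hhip are known both as pathway members and as its targets. Of 8 measured Hedgehog genes, 6 were lower in KO and none higher, against 3.69% and 4.11% of all genes, with a median log2 ratio of -0.83; in core cells it was 5 of 9 lower, with a median of -0.63. Gli1 stood at 22.7 CPM in KO and 54.6 CPM in WT, a ratio of 0.416, and Ptch1 at 69.4 CPM and 142 CPM, a ratio of 0.490. The co-receptors Cdon, with 56.8 CPM in KO and 116 CPM in WT, Boc, with a ratio of 0.642, and Gas1, with 0.644, were lower too. Hhip stood at 90.8 CPM in KO and 202 CPM in WT but did not pass in core cells, and in alveolar-type fibroblasts its ratio was 3.54.

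Of 13 Wnt genes, the ligand Wnt5a, with 80.7 CPM in KO and 202 CPM in WT, and the secreted antagonist Sfrp4, with 12.6 CPM and 46.8 CPM, were lower, and the antagonist Sfrp1, with 101 CPM and 37.7 CPM, was higher. Wnt5a stood at 213 CPM in Xist-only and 55.8 CPM in Y-only KO core cells, against 218 CPM in Xist-only WT core cells, so the difference lay in the Y-only cells. Of 19 growth factors for vessels and epithelium, 4 were lower: Vegfa, with 30.3 CPM in KO and 81.9 CPM in WT, Fgf7, or keratinocyte growth factor, with 23.97 CPM and 57.2 CPM, Sema3c, a guidance molecule for vessels and axons, with 101 CPM and 217 CPM, and Angptl2, with 63.1 CPM and 108 CPM. The ratios of Sema3c and Vegfa moved with the cells counted and their weights. Without the 5 deepest cells of each library the log2 ratio of Sema3c was -0.01 in place of -1.10. With each cell weighted alike that of Vegfa was -0.10 in place of -1.44. Adm, or adrenomedullin, a vasodilator peptide, was higher, with a ratio of 1.63. None of 9 insulin-like growth factor genes passed over the class, while in core cells 1 was higher and 1 lower. Their median log2 ratio was 0.11 over the class and -0.36 in core cells.

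Of 9 measured chemokines and cytokines, 2 were higher and 2 lower, against 4.11% and 3.69% of all genes. Cxcl14, a chemokine made by fibroblasts and epithelia, stood at 183 CPM in KO and 13.0 CPM in WT, a ratio of 14.1 (7.44 to 30.0), with 76.0% of its KO core UMIs in 2 cells. Cxcl13, which attracts B cells, had 114 UMIs in 3 KO cells and none in WT, at least 36.9-fold higher against a floor of 3 counts per library. These higher chemokines were therefore a matter of a few cells. Cxcl12, the ligand of Cxcr4, stood at 357 CPM in KO and 586 CPM in WT, and Il33, an alarmin, at 63.1 CPM and 125 CPM. Counting Cxcl13 at its bound moved the list's median log2 ratio to 0.16 from 0.12.

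Of 9 measured genes of MHC class I presentation, 3 were lower in KO and none higher, against 3.69% and 4.11% of all genes, with a median log2 ratio of -0.59, and in core cells 5 were lower. Of 20 alternatives, H2-K1 differed by less than 1.5-fold in 9 and H2-D1 in 4. The heavy chain H2-D1 stood at 661 CPM in KO and 1083 CPM in WT, a ratio of 0.611, H2-K1 at 204 CPM and 308 CPM, and Psmb8, a subunit of the immunoproteasome, at 17.7 CPM and 59.8 CPM. H2-D1 and H2-K1 are near-identical to other class I genes, so their reads may be divided uncertainly. The ratio of H2-D1 was 0.520 in alveolar-type fibroblasts, 0.543 in endothelial cells and 0.619 in alveolar type 2 cells. Of 15 interferon response genes, Isg15, a ubiquitin-like protein, with 10.1 CPM in KO and 42.9 CPM in WT, and Bst2, or tetherin, with 56.8 CPM and 142 CPM, were lower and Ifi204 was higher. None of 9 complement genes passed over the class, while 4 were lower in core cells; C3, the central component, had a ratio of 0.820 over the class and 0.624 in core cells, and C4b 0.682 and 0.546.

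Of 25 transcription factors of fibroblasts and lung mesenchyme, 4 were lower and 1 higher in KO, against 3.69% and 4.11% of all genes. The list's median log2 ratio was -0.52. Nr2f2, an orphan nuclear receptor of veins and mesenchyme, stood at 167 CPM in KO and 374 CPM in WT, a ratio of 0.445. Ebf1, with 233 CPM in KO and 398 CPM in WT, and Ebf2, with 17.7 CPM and 52.0 CPM, factors of the mesenchymal and fat lineages, and Nfib were also lower, whereas Tbx4, a factor of lung mesenchyme, stood at 44.2 CPM in KO and 16.9 CPM in WT and did not pass in core cells. Gxylt2, a xylosyltransferase of Notch glycosylation, with 64.3 CPM in KO and 147 CPM in WT, and Gng11, a G protein gamma subunit, with 64.3 CPM and 146 CPM, complete the 12 lowest ratios.

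Side by side with other classes of the same libraries, some of these ratios recurred and others did not; none of the differences between classes was tested. The alveolar-type cells also differed in RNA of other types: alveolar type 2 markers summed to 1570 CPM in KO and 52161 CPM in WT, with 0 of 29 KO and 8 of 68 WT cells over 1% Sftpc, and pericyte markers to 3311 CPM in KO and 1599.9 CPM in WT, and the part of this in the ratios was not tested. Mt1 stood at 2041 CPM in KO alveolar-type fibroblasts and 62.3 CPM in WT alveolar-type fibroblasts, a ratio of 32.8, while Mt2 had a ratio of 6.06 there. Mt2 had UMIs in 51.7% of these KO cells and 4.41% of these WT cells, so few WT cells held its 52 WT UMIs. In smooth muscle marker cells the ratios were 2.71 for Mt1 and 6.71 for Mt2, and in endothelial cells 2.21 and 7.89 at levels under 20 CPM. The smooth muscle marker cells had no limit on fibroblast genes. Up to 21 KO and 30 WT of them met the fibroblast-gene and marker-sum criteria of the rule. Lox and Eln were higher in KO alveolar-type fibroblasts too, with ratios of 4.07 and 4.08, and Eln had 2.63 in smooth muscle marker cells, whereas in endothelial cells Lox had 1.13 and Eln 1.19. Fabp4 had a ratio of 9.26 in alveolar-type fibroblasts, 0.587 in endothelial cells and 0.131 in alveolar type 2 cells. Ctgf did not pass in alveolar-type fibroblasts, with 569 CPM in KO and 585 CPM in WT, but had 7.72 in endothelial cells. Fos was lower in every class compared, with ratios of 0.247 in alveolar-type fibroblasts, 0.141 in smooth muscle marker cells, 0.218 in endothelial cells and 0.480 in alveolar type 2 cells. Tgfbi went opposite ways, with 0.265 in alveolar-type fibroblasts and 18.7 in endothelial cells, where it stood at 44.0 CPM in KO and 2.35 CPM in WT. Cxcl14, higher in KO adventitial-type cells, had a ratio of 0.219 in alveolar-type fibroblasts.

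**Figure D3:**
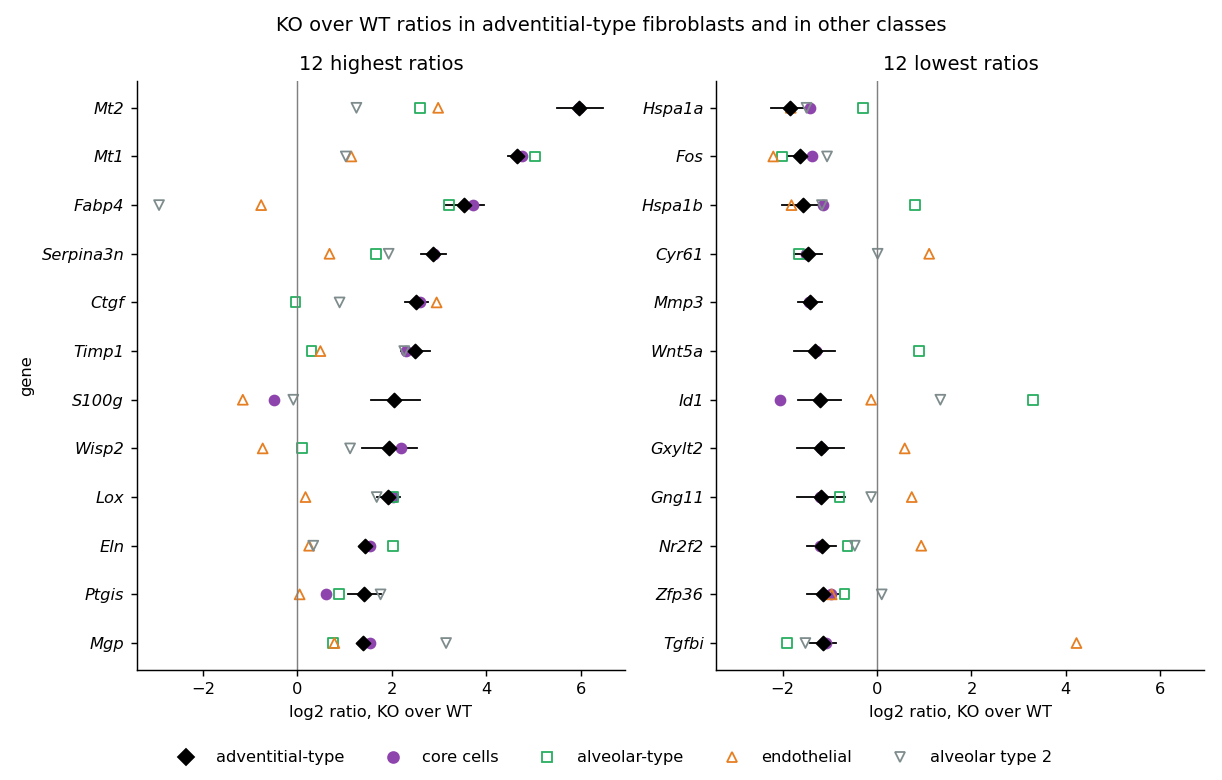
Log2 ratio of KO over WT for the 12 highest (left) and 12 lowest (right) genes of adventitial-type fibroblasts, with the ratio interval for the class (black), beside the ratios in core cells, alveolar-type fibroblasts, endothelial cells and alveolar type 2 cells; ratios of genes with few UMIs in a class are not drawn. Mt1 lies near 5 in both fibroblast types and near 1 in endothelial and alveolar type 2 cells. Among the core and alveolar-type ratios drawn, that of Id1 lies farthest from the class, at 9.84 in alveolar-type cells against 0.431. Mt2 is next, with 6.06 in alveolar-type cells against 62.1 over the class. The WT alveolar-type UMIs of Mt2 lay in 4.41% of those WT cells.

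Within KO the cells of the class were uneven, and the genes named above did not all vary alike. Over the 37 KO core cells, the level of Mt1 per 10000 UMIs had a Spearman correlation of 0.91 with Mt2, 0.59 with Lox, 0.55 with Serpina3n, 0.53 with Fabp4 and 0.51 with Col4a1, and of -0.53 with Col14a1 and -0.41 with Dpt. Other genes lay nearer 0 in these KO cells, such as Timp1 at 0.32, Ctgf at 0.23, Fos at 0.09 and Eln at -0.01. Mgp stood at 0.42. These cells share 1 library and their depths, and the values are a description. Over the 51 WT core cells the correlation of Mt1 with Mt2 was 0.47. The other relations were near 0 in WT. They were -0.11 with Lox, -0.03 with Serpina3n, 0.17 with Fabp4, 0.10 with Col4a1, 0.09 with Col14a1 and -0.06 with Dpt. The deepest 2 KO cells, with 53455 and 46613 UMIs, both had Y-linked transcripts alone and held 1403 and 1009 UMIs of Mt1, 4132 and 4622 of Mgp, and 121 and 190 of Timp1. With each cell weighted alike, the log2 ratio over the class was 3.93 for Mt1, 5.39 for Mt2, 2.59 for Serpina3n, 1.89 for Lox and 1.39 for Eln, and 0.65 for Mgp. Whether these 2 cells, the sexes or the depth account for any of the differences was not tested.

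**Figure D4:**
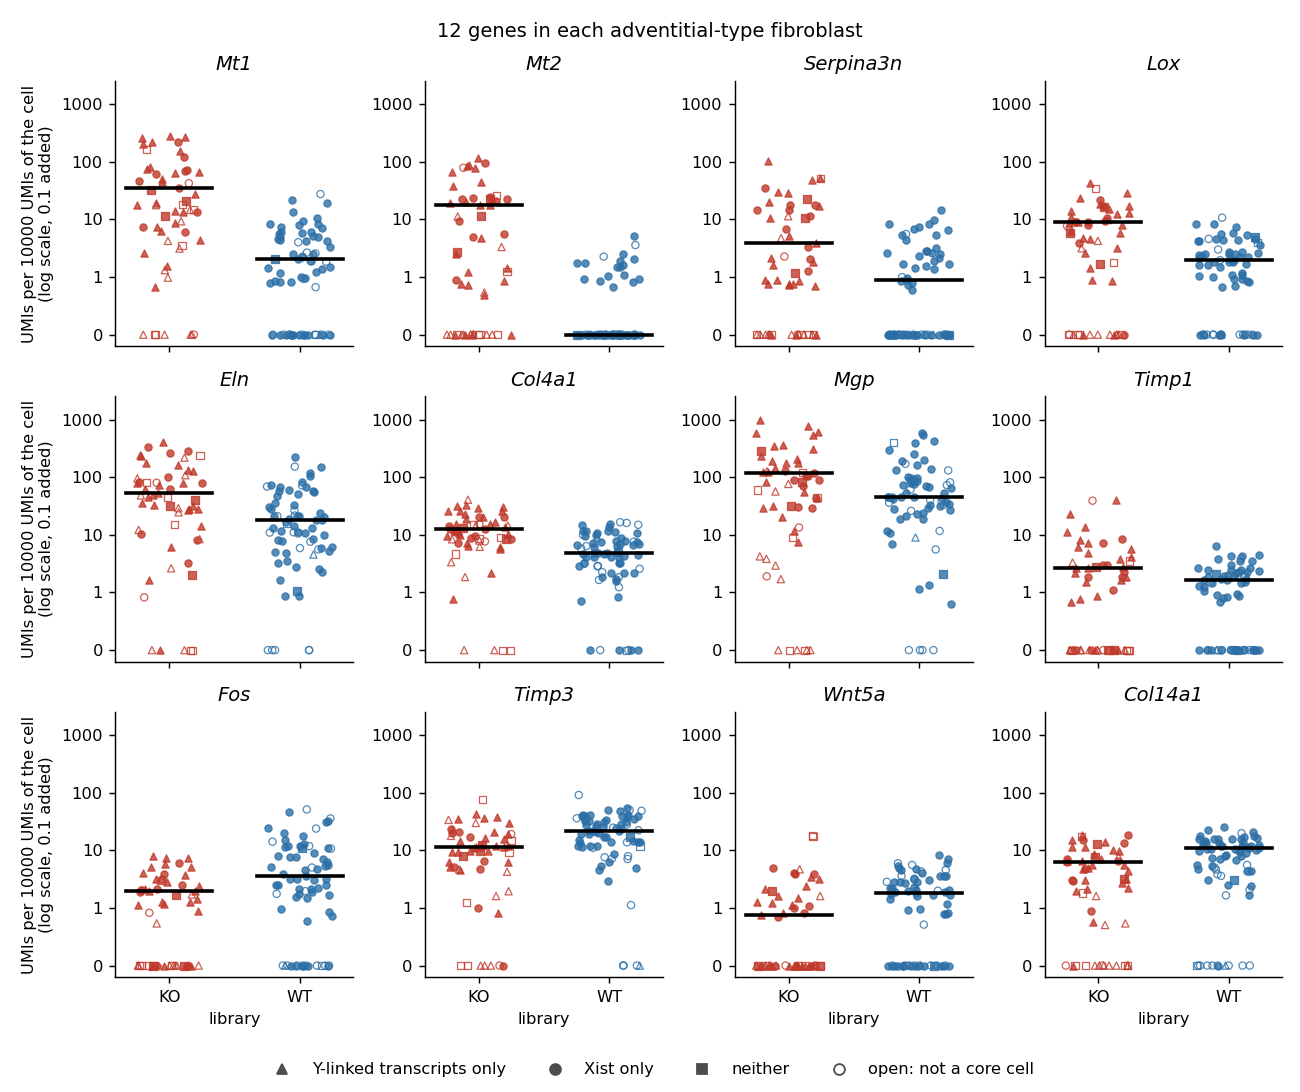
UMIs of 12 genes per 10000 UMIs (log scale, 0.1 added) in each KO and WT adventitial-type fibroblast, with bars at the medians of core cells and symbols for Xist-only, Y-only and untyped cells; open symbols are cells outside the core. The KO median lies above the highest WT core cell for Mt1 and Mt2, while for the other genes drawn the libraries overlap more widely. The highest Mgp levels are those of Y-only KO cells, and the highest Timp1 levels those of a Y-only and an Xist-only KO cell.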

How the data were processed

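The authors deposited raw UMI counts per gene and barcode for each library (10x Genomics 3' v3); Cell Ranger 3.0.1 and mm10 are named per the submitters' processing notes. Each group was 1 library. The members and the 24 gene lists (418 of 422 genes in the files) were chosen with earlier results of these data known. Counts were summed per class and library, divided by the class total and given as CPM, with exact intervals from SciPy 1.17.1. Doublets were called with Scrublet in scanpy 1.11.5 and kept. The genes named were the 12 with the highest and the 12 with the lowest ratio of KO over WT at 100 CPM or more, up to 4 members of each list at 20 CPM, and the 15 and 10 genes that most set adventitial-type apart from alveolar-type cells, leaving out mitochondrial, ribosomal, haemoglobin, predicted and sex-linked genes, genes of the rule and markers of other types; Acvrl1 was always named. Other genes were named after their values were seen. Endothelial cells (1821) had over 2 UMIs of the rule's endothelial genes, smooth muscle marker cells (121) over 2 of its smooth muscle genes, and alveolar type 2 cells (1336) at least 3 of Lamp3, Slc34a2, Abca3 and Napsa; endothelial and alveolar type 2 cells had fewer than 4 of the 8 fibroblast genes, endothelial cells under 3 of the type 2 genes, and the other classes at most 2 endothelial UMIs. A gene of the BMP and TGF-beta list is not reported here and was left out of that list's counts. Positions are from GENCODE M21. The calculation was tested on Poisson counts simulated from the summed UMIs. These hold no spread between cells, so unevenness between cells was not covered.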

Additional observations from a re-analysis of the deposited data

How the results depend on the processing

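No paired analysis was possible because each group was 1 library and no test was made. Over 20 alternatives, 4 of them added after the data had been seen, the counts and shares moved as follows. Under stricter limits of 1000 genes and 5% mitochondrial UMIs, the class was 6.465% of kept KO cells and 3.59% of kept WT cells, with 3 of the 8 genes 6.18% and 3.42%, with no smooth muscle or endothelial UMI 2.34% and 1.35%, and as core cells 2.79% and 1.86%. With doubled marker sums it was 1.86% of kept WT cells. Of both fibroblast types it was 65.3% in WT with 5 of the 8 genes, 80.0% in KO after thinning to 1500 UMIs, and 90.2% in KO and 87.9% in WT as core cells. The core requires every adventitial gene of the rule, which by itself raises this share. Genes higher in KO numbered 152 with no smooth muscle or endothelial UMI, and 40 higher and 32 lower after thinning, where fewer UMIs were counted, and 90 and 103 at 100 CPM or more. In Xist-only cells 261 were higher and 233 lower, of which 124 and 89 were shared with the whole class. Log2 ratios that turned round were those of S100g, at -0.13 with 3 genes, -1.49 with 5 genes, -0.49 in core cells, -0.068 with Sftpc limited alone and -0.36 in core cells with Y-only KO. They also were, after thinning, Id2 at 0.18, Gli1 at 0.021, Hspb1 at -0.34, Ebf2 at 0.44 and Mif at -0.049, and, with cells weighted alike, Hspb1 at -0.19. In Xist-only cells Mgp was at -0.50, and in Xist-only core cells Mgp was at -0.36, Angptl2 at 0.052, Hhip at 0.23, Mif at -0.39 and Sod2 at -0.54. The cause was not tested. Among the list medians and named genes, 1680 further values kept their place and 271 moved. The median log2 ratio of all genes was -0.04, and scaling to it gave 276 higher and 197 lower. Genes under 20 CPM were not counted, and values given below it are limited by depth.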

Other observations

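Core cells with a UMI of Pi16, a gene outside the selection rule, were set beside those without in each library, a division made after the data had been seen and given as values only. In KO 31 core cells had Pi16 and 6 did not, with medians of 16021 and 12648.5 UMIs, and in WT 36 had it and 15 did not, with medians of 13295 and 11027 UMIs. Of 2355 genes at 50 CPM or more in both libraries, 25 were at least 1.5-fold higher with intervals apart in the Pi16 cells of both, Pi16 itself among them, and 7 were lower in both. Ly6a, the stem cell antigen Sca-1, stood at 654 CPM with Pi16 and 229 CPM without in KO, and at 1052 CPM and 343 CPM in WT. Crip1, a small LIM domain protein, stood at 1211 CPM with Pi16 and 144 CPM without in KO and at 1152 CPM and 489.5 CPM in WT. Fbn1, the main fibrillin, stood at 1132 CPM with Pi16 and 578 CPM without in KO and at 1576 CPM and 796 CPM in WT. Lower with Pi16 were Apoe, which carries lipids, at 3545 CPM with Pi16 and 6257 CPM without in KO and at 3850 CPM and 7521 CPM in WT, and Igfbp3, at 430.3 CPM and 1047 CPM in KO and 270 CPM and 532 CPM in WT. The cells without Pi16 were shallower in both libraries, and the part of depth in these values was not tested.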
